A study of Mus musculus with 3 samples.

Results

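The CD8 T cell TCR beta repertoire described here comprised 81212 clonotypes with 150874 reads. These were all clonotypes of the CD8 library that carried a TRBV and a TRBJ gene, out of 81313 clonotypes in that library and 168230 in the 3 libraries of the series. Only the gene names of a clonotype were used to choose it, so its reads, CDR3 and pairing were free to vary. The cells came from the spleen of 1 male MRL.lpr mouse, a lupus-prone strain that carries a defective Fas gene, at an age of 16 weeks. CD4, CD8 and double-negative (DN) T cells of this mouse were FACS sorted, and mRNA from 1000000 cells per subset entered library preparation with the Takara SMARTer profiling kit, in which TCR alpha and TCR beta transcripts are amplified. The CD4 library held 44807 TCR beta clonotypes with 133667 reads and the DN library 41948 with 194290 reads, and both served only as references. The animal, its strain and its age were shared by the 3 libraries, and there was neither an animal without the lpr mutation nor a second mouse. With 1 library per subset no difference had a replicate check, and each test below compares libraries, not conditions.

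The TCR beta chain is assembled in the thymus by joining a V, a D and a J gene, with bases trimmed and added at both joints. The CDR3 loop spans these joints and meets the peptide held by an MHC molecule, which is of class I for most CD8 T cells and of class II for most CD4 T cells. A clonotype is a group of reads with the same CDR3 sequence, and its reads reflect both how many cells carry the receptor and how much of its mRNA was captured. DN T cells carry an alpha beta receptor without CD4 or CD8 and accumulate in mice that lack Fas.

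A TCR library does not measure Cd8a or Cd8b1, so the sorted identity could not be checked by its defining genes. Receptors of other T cells were looked for instead. Of the 101 TCR alpha reads in the CD8 library, 0 carried the TRAV11 and TRAJ18 pair of invariant NKT cells and 0 the TRAV1 and TRAJ33 pair of MAIT cells, which allows a share of up to 2.97% of TCR alpha reads for each. A single clonotype of the library had a gamma or delta V gene. Because the kit amplifies TCR alpha and beta transcripts, this count cannot show whether gamma delta T cells were present.

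The 10 largest CD8 clonotypes show how the repertoire was built, and their CDR3 sequences are given from the codon of the conserved cysteine to that of the conserved phenylalanine. Capitals mark the junction, that is the bases left after the V start and the J end were each followed base by base for as long as most of the gene's clonotypes that still matched carried the same next base.
CD8 clonotype 1, TRBV13-1 and TRBJ1-3: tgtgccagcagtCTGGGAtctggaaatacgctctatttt
CD8 clonotype 2, TRBV17 and TRBJ2-3: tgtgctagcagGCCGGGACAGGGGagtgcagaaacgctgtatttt
CD8 clonotype 3, TRBV1 and TRBJ2-4: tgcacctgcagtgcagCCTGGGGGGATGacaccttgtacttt
CD8 clonotype 4, TRBV13-2 and TRBJ2-5: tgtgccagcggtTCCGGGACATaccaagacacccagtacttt
CD8 clonotype 5, TRBV17 and TRBJ2-1: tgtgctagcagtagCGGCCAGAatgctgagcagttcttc
CD8 clonotype 6, TRBV13-1 and TRBJ2-7: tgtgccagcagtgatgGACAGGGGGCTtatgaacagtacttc
CD8 clonotype 7, TRBV17 and TRBJ2-7: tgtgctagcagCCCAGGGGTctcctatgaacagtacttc
CD8 clonotype 8, TRBV13-1 and TRBJ2-4: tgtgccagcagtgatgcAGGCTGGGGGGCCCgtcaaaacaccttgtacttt
CD8 clonotype 9, TRBV4 and TRBJ2-3: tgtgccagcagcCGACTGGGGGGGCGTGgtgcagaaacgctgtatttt
CD8 clonotype 10, TRBV1 and TRBJ2-1: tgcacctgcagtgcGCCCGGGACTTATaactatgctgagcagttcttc
A D gene was assigned to each of them but clonotype 5, and the V and J ends that remained differed in length. Clonotype 1 had the shortest junction of the 10, with 6 bases, and clonotypes 8 and 9 had the longest, with 14 and 16 bases. Over all 77240 in-frame CD8 clonotypes without a stop codon, the junction averaged 10.02 bases (SD 4.38), against 10.2 (SD 4.55) in CD4 and 10.9 (SD 4.60) in DN.

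The libraries shared clonotypes, which bears on every comparison below. A CD8 clonotype was counted as found in another library when that library held the same CDR3 bases with the same V and J gene. By this measure 71479 CD8 clonotypes, 88.0%, were found in neither other library. DN alone also held 5835 (7.18%), CD4 alone 1961 (2.41%) and both 1937 (2.39%). Those found in both carried 15.2% of CD8 reads. In 6811 CD8 clonotypes, with 15.9% of CD8 reads, the share of reads was higher in CD4 or DN than in CD8. The source of this sharing was not tested.

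Among V genes, CD8 clonotypes used TRBV13-3 most, and TRBV13-3, TRBV14 and TRBV16 made up larger shares of CD8 than of either reference. TRBV13-3, formerly Vβ8.1, was carried by 11783 CD8 clonotypes, 14.5% (95% Wilson interval 14.3 to 14.8%), against 5.41% in CD4 and 9.84% in DN. TRBV14, formerly Vβ13, was carried by 6.42% of CD8 clonotypes (6.26 to 6.59%), 1.35% of CD4 and 2.64% of DN clonotypes, which gave ratios of 4.77 and 2.43. TRBV16, formerly Vβ11, reached 1.27% in CD8 (1.20 to 1.35%), 0.402% in CD4 and 0.372% in DN, with ratios of 3.16 and 3.42. For these 3 genes the adjusted p of Fisher's exact test on clonotype numbers was at most 1.03e-122 for TRBV13-3, 1.24e-197 for TRBV14 and 1.86e-58 for TRBV16. Counted by reads, TRBV13-3 exceeded DN 1.27-fold and was no longer called. Intervals of clonotype shares cover counting error only, since the clonotypes of 1 library are not replicates. The reads are PCR reads with no molecular identifiers in the files, and reads of 1 clonotype are not independent. Calls and intervals over reads therefore understate the error.

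**Figure D1:**
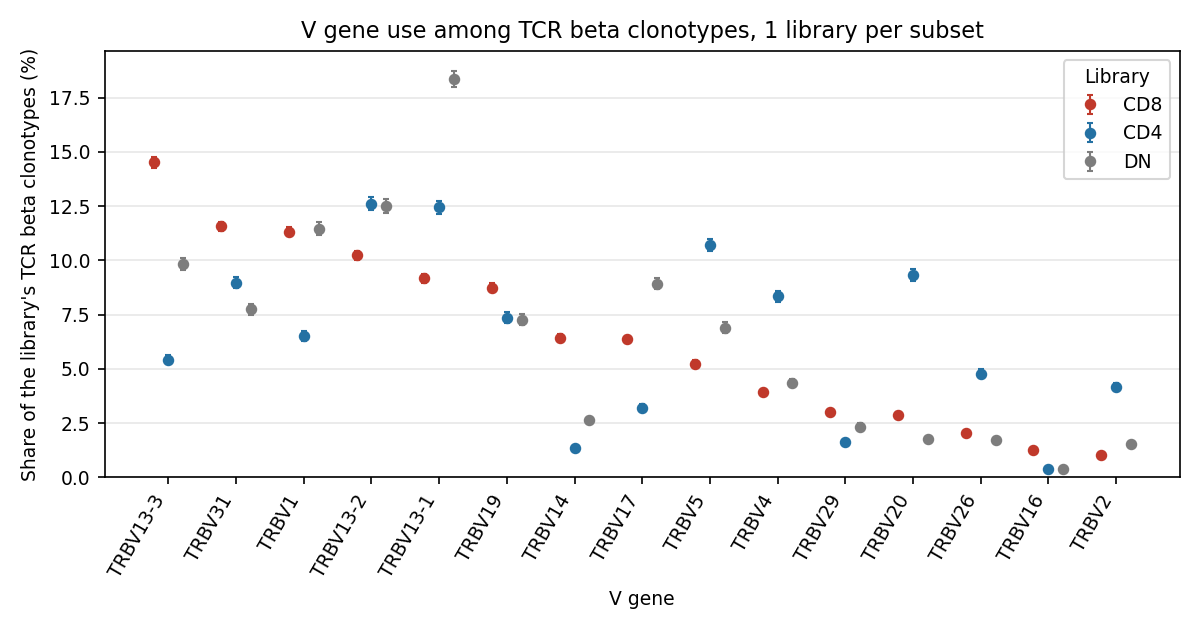
Share of each library's TCR beta clonotypes (vertical axis, %) for the 15 V genes that held at least 1% of CD8 clonotypes, with 1 library per subset; points are shares and bars 95% Wilson intervals. TRBV13-3 led in CD8 with 14.5%, and TRBV14 stood at 6.42% in CD8 against 1.35% in CD4 and 2.64% in DN.

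A V gene was called when the adjusted p was under 0.05 and the shares differed at least 1.3-fold, over 29 V genes tested in both comparisons together. Against CD4, 6 V genes, 20.7% of those tested, were higher in CD8 and 11, or 37.9%, were lower. Against DN, 7 were higher and 7 were lower, 24.1% of those tested in each direction. The 2 comparisons share the CD8 library and are given side by side.

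The genes that set CD8 apart from CD4 were not always those that set it apart from DN. TRBV1, formerly Vβ2, held 11.3% of CD8 clonotypes, 1.74 times its share in CD4, while the ratio to DN was 0.989 (Fisher's exact test, adjusted p = 0.563). TRBV29 held 3.003% and exceeded CD4 1.87-fold and DN 1.29-fold, short of a call against DN. Counted by reads, with each read taken as independent, the ratio to DN was 1.35 and was called. RefSeq lists TRBV29 as a pseudogene, yet 97.8% of its CD8 clonotypes were in frame without a stop. TRBV17, formerly Vβ9, was intermediate, with 6.36% in CD8, 3.21% in CD4 and 8.93% in DN, and its ratio to DN moved from 0.712 to 0.900 by reads and lost its call. TRBV20, formerly Vβ15, showed the opposite order, with 2.89% in CD8, 9.31% in CD4 and 1.75% in DN.

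Several V genes were less used by CD8 than by CD4 clonotypes. The CD8 share was 0.489 times that of CD4 for TRBV5, formerly Vβ1, which held 5.23% of CD8 clonotypes. It was 0.471 times for TRBV4, with 3.94%, and 0.427 times for TRBV26, with 2.04%. TRBV2 had the lowest ratio to CD4 among V genes with at least 1% of CD8 clonotypes, at 0.245, and held 1.02% of CD8 clonotypes. Against DN, TRBV5 (ratio 0.759, or 0.772 and not called with at least 2 reads per clonotype) and TRBV2 (0.669) were also lower, whereas TRBV4 (0.904) and TRBV26 (1.19) fell short of 1.3-fold.

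The 3 genes of the Vβ8 family together held 33.9% of CD8 clonotypes, between the 30.5% of CD4 and the 40.7% of DN, but the members differed. TRBV13-2, formerly Vβ8.2, held 10.2% in CD8 and less than in either reference (ratios of 0.811 to CD4 and 0.818 to DN), though short of a call. Counted by reads, with each read taken as independent, its ratio to CD4 was 0.670 and was called. TRBV13-1, formerly Vβ8.3, held 9.17% in CD8 against 12.4% in CD4 and 18.4% in DN. Its CD8 share was thus 0.499 times that of DN (Fisher's exact test, adjusted p = 1e-300, the smallest value given). Counted by reads, TRBV13-1 held 12.6% of CD8 reads, or 10.7% without the single largest clonotype, and its ratio to CD4 moved from 0.737 to 0.940 and was no longer called. TRBV31, the V gene that lies downstream of the J genes, held 11.6% of CD8 clonotypes, 1.29 times its share in CD4 and 1.49 times that in DN. The first fell short of a call, which it passed over in-frame clonotypes (1.36), and the second lost its call when counted by reads (1.23). TRBV19, formerly Vβ6, held 8.74% and did not reach 1.3-fold against CD4 (1.19) or DN (1.20).

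The V genes of Vβ5, Vβ11 and Vβ12 are known for binding superantigens of endogenous mammary tumour viruses presented by the class II molecule I-E, and here the libraries differed in how many of their clonotypes were in frame. Out-of-frame rearrangements make no receptor, and their V use is often taken as a view before selection, which was not tested here. The set used below also held 268 CD8 clonotypes in frame with a stop, and all were read from mRNA. For some genes its V use differed between libraries much as in frame did. The ratio of CD8 to CD4 in this set was 0.363 for TRBV20 and 1.69 for TRBV1, against 0.303 and 1.72 in frame. For TRBV16, 889 CD8 clonotypes were in frame without a stop, 1.15% of all such CD8 clonotypes. The CD4 library had 51 (0.123%) and the DN library 81 (0.212%), which gave ratios of 9.32 and 5.43. Among clonotypes out of frame or with a stop, in contrast, TRBV16 held 3.60% in CD8 (143 clonotypes, 3.06 to 4.23%) and 3.68% in CD4 (129 clonotypes, 3.11 to 4.35%), with 1.99% in DN (75 clonotypes, 1.59 to 2.49%). Accordingly, 86.1% of TRBV16 clonotypes were in frame without a stop in CD8 (83.9 to 88.1%), 28.3% in CD4 (22.3 to 35.3%) and 51.9% in DN (44.1 to 59.6%).

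The largest in-frame TRBV16 clonotypes of CD8 are shown because none of them had a read in CD4 or DN. Being chosen for this absence, they do not make it a result about TRBV16. Of all CD8 clonotypes with 11 to 100 reads, the class of those shown, 31.5% were found in neither reference.
TRBV16 clonotype 1, TRBJ2-3: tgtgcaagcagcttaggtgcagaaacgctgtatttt
TRBV16 clonotype 2, TRBJ1-5: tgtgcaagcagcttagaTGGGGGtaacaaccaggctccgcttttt
TRBV16 clonotype 3, TRBJ1-2: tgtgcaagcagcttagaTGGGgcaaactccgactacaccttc
They had 100, 34 and 18 reads in CD8. The first, which reads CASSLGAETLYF, left no base between its V and J ends, and the third reads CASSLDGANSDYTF.

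The related genes did not follow one pattern. TRBV12-1, formerly Vβ5.2, was in frame without a stop in 71.5% of its 144 CD8 clonotypes, 22.2% of its 63 CD4 clonotypes and 16.9% of its 77 DN clonotypes. For TRBV12-2, formerly Vβ5.1, this share was 85.4% in CD8, 75.9% in CD4 and 27.9% in DN, so that CD8 and CD4 lay close together. TRBV15, formerly Vβ12, was mostly not in frame in any library, with in-frame shares of 38.3% in CD8, 20.99% in CD4 and 19.5% in DN. Its share of all CD8 clonotypes was lower than in CD4 (0.573 times) and DN (0.611 times), while over in-frame clonotypes alone the ratios were 1.01 and 1.15. In all, 4.89% of CD8 clonotypes were out of frame or held a stop, against 7.82% in CD4 and 8.96% in DN. For TRBV14 the CD8 share exceeded that of CD4 both among in-frame clonotypes (5.11-fold) and among the rest (1.91-fold), and TRBV13-3 did so 2.71-fold and 1.65-fold. Of the clonotypes out of frame or with a stop, 83.3% had a single read in CD8, 75.5% in CD4 and 71.4% in DN.

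**Figure D2:**
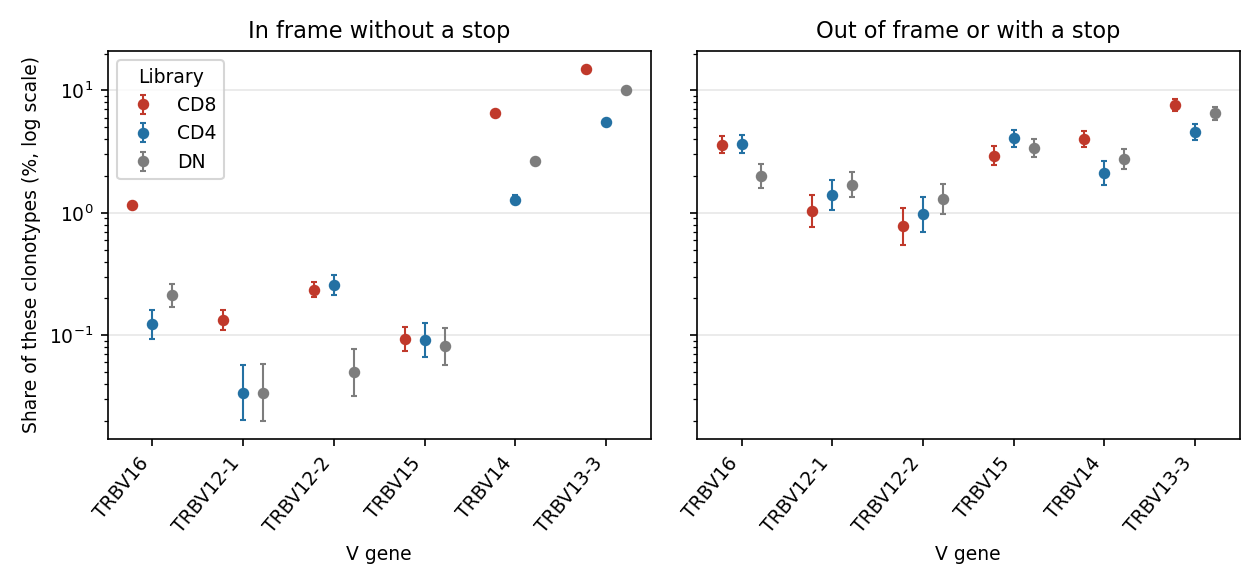
Share of a V gene (vertical axis, %, log scale) among clonotypes in frame without a stop (left) and among clonotypes out of frame or with a stop (right) in each library, with 95% Wilson intervals as bars. TRBV16 reached 1.15% in CD8 and 0.123% in CD4 on the left, and 3.60% and 3.68% on the right.

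J gene use differed less between libraries than V gene use. TRBJ2-7 was the most used J gene in CD8 with 21.2% of clonotypes, followed by TRBJ2-1 with 14.1% and TRBJ2-5 with 13.4%. TRBJ1-1 held 8.52%, TRBJ2-3 8.24%, TRBJ2-4 7.90%, TRBJ1-4 6.36%, TRBJ2-2 4.83%, TRBJ1-2 4.81%, TRBJ1-3 4.70%, TRBJ1-6 3.50% and TRBJ1-5 2.53%. TRBJ2-6 was seen in 1 CD8 clonotype. None of the 13 J genes was called in either direction, 0% of those tested against CD4 and 0% against DN. By Fisher's exact test alone, without the fold, 9 J genes had an adjusted p under 0.05 against CD4 (3 higher and 6 lower) and 8 against DN (5 higher and 3 lower), the same numbers as at an unadjusted p under 0.05. Over the 12 J genes with at least 100 CD8 clonotypes, the ratios to CD4 ran from 0.787 for TRBJ1-2 to 1.21 for TRBJ2-7, and those to DN from 0.879 for TRBJ2-1 to 1.26 for TRBJ1-2.

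The TRBJ1 cluster was carried by 30.4% of CD8 clonotypes (30.1 to 30.7%), less than the 36.03% of CD4 (35.6 to 36.5%) and slightly more than the 29.2% of DN (28.8 to 29.7%). The D gene could be assigned in most clonotypes. TRBD1 was assigned to 41.4% of CD8, 44.3% of CD4 and 37.0% of DN clonotypes, and TRBD2 to 32.7%, 29.5% and 40.01%, so CD8 lay between the references for both. No D gene was assigned to 25.9% of CD8 clonotypes, and their CDR3s were shorter, at 13.1 residues on average, than those with TRBD1 (14.0) or TRBD2 (14.5). TRBD2 lies downstream of the TRBJ1 cluster, and it was assigned to 5.21% of TRBJ1 clonotypes in CD8, 5.61% in CD4 and 6.41% in DN. In reads it took 11.97% of TRBJ1 in CD8, where the largest clonotype was assigned such a pair. D calls from few bases are uncertain, and the junction of that clonotype had 6 bases. That clonotype also lifted TRBJ1-3 to 6.65% of CD8 reads, or 4.59% without it.

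V and J genes paired mostly as the product of their separate shares. Of the 153 pairs for which this product gave at least 100 CD8 clonotypes, 128 were within 1.3-fold of it, 7 were above and 18 below. The 5 pairs with the most clonotypes all used TRBJ2-7, with TRBV13-3 (2495 clonotypes, 3.07%), TRBV13-2 (1919, 2.36%), TRBV31 (1758, 2.16%), TRBV13-1 (1727, 2.13%) and TRBV1 (1707, 2.10%), and lay between 0.877 and 1.10 times the product. TRBV20 with TRBJ1-2 stood farthest above it, with 251 clonotypes and a ratio of 2.22, followed by TRBV1 with TRBJ1-5 (377 clonotypes, 1.62) and TRBV14 with TRBJ2-5 (974 clonotypes, 1.40). TRBV17 stood farthest below, with 44 TRBJ1-5 clonotypes (ratio 0.337) and 70 TRBJ1-6 clonotypes (0.387), and TRBV5 with TRBJ1-2 had 111 (0.543). The same 6 pairs lay on the same side of the product in both references. For TRBV17 with TRBJ1-5 the ratio was 0.756 in CD4 and 0.322 in DN, and for TRBV14 with TRBJ2-5 it was 2.08 and 1.74.

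**Figure D3:**
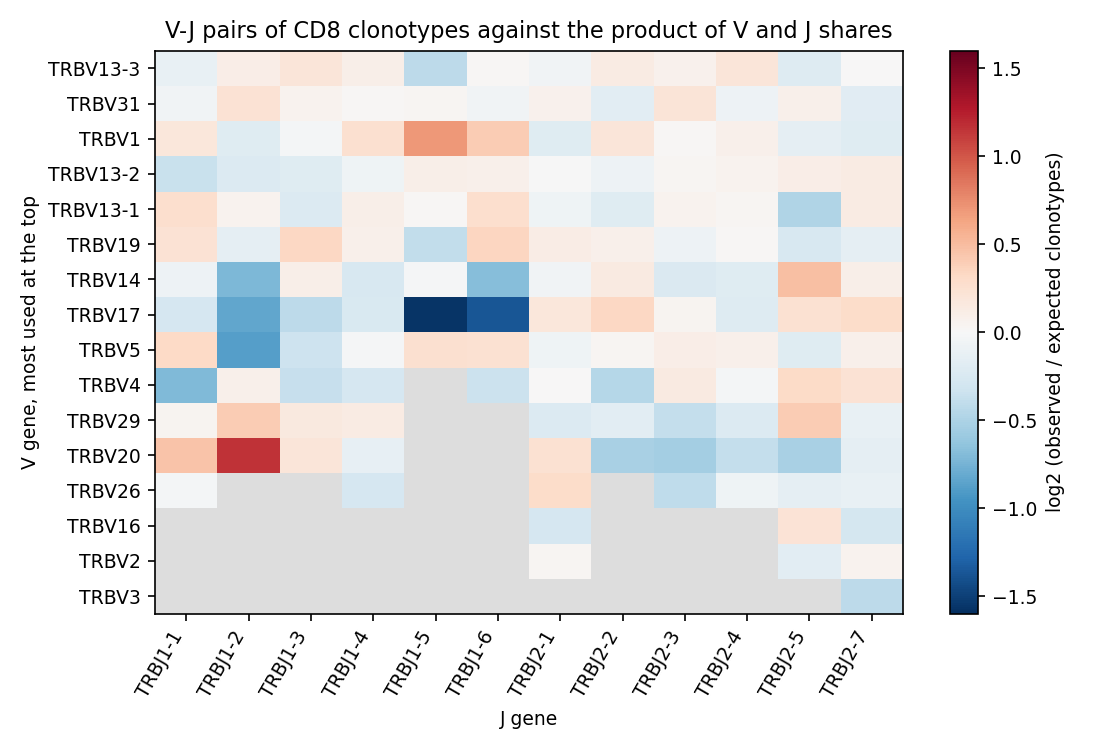
Number of CD8 clonotypes of each V-J pair over the number given by the product of the V and J shares, on a log2 colour scale, with V genes as lines and J genes as columns; grey fields had fewer than 100 clonotypes by the product. Most fields are pale, the darkest red is TRBV20 with TRBJ1-2 (ratio 2.22) and the darkest blue TRBV17 with TRBJ1-5 (0.337).

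The V-J pairs were also compared between libraries. Of 180 pairs tested, 69 (38.3%) were higher in CD8 than in CD4 and 76 (42.2%) lower, and 61 (33.9%) were higher than in DN and 28 (15.6%) lower. These ratios also carry the differences in V and J shares, which were not taken out. TRBV13-3 with TRBJ2-7 exceeded CD4 3.51-fold and DN 1.497-fold, where against CD4 TRBV13-3 alone had a ratio of 2.68 and TRBJ2-7 alone 1.21. TRBV13-1 with TRBJ2-7 held 2.13% in CD8 and 2.18% in CD4, whereas DN had 4.84%.

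The CDR3 of in-frame CD8 clonotypes averaged 13.9 residues (SD 1.52), with 14 as the most frequent length. The 5 lengths from 12 to 16 residues held 90.8% of them. CD8 minus CD4 was 0 to 2 decimals (95% interval -0.0179 to 0.0179), and CD8 minus DN was -0.30 residues (interval -0.316 to -0.279). Both intervals come from the spread over clonotypes, each taken as independent, and hold no replicate error. A length of 15 residues was found in 21.9% of CD8, 23.0% of CD4 and 26.4% of DN clonotypes. With DN weighted to the V-J use of CD8, CD8 was still shorter (CD8 minus DN -0.264 residues). Among V genes with at least 1% of CD8 clonotypes, the mean within CD8 ran from 12.9 residues for TRBV20 to 14.8 for TRBV2, and among J genes from 13.2 for TRBJ1-1 to 14.7 for TRBJ2-3.

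The residues at positions 6 and 7 of the CDR3, counted from the cysteine as position 1, are among those that face the peptide and MHC. Hydrophobic residues, here tryptophan, tyrosine, phenylalanine, valine, leucine, isoleucine or methionine, took 15.5% of these positions in CD8 clonotypes of 11 to 18 residues (15.3 to 15.7%), between 13.0% in CD4 (12.8 to 13.3%) and 19.9% in DN (19.6 to 20.1%). With the references weighted to the V-J use of CD8, the values were 15.5% against 13.9% in CD4 and 19.6% in DN. Values varied more between J genes than between libraries. Within CD8, clonotypes with TRBJ1 genes had 4.98% (TRBJ1-2) to 11.7% (TRBJ1-6), and those with TRBJ2 genes 14.8% (TRBJ2-2) to 19.8% (TRBJ2-7). In each of the 12 J genes with in-frame clonotypes CD8 was below DN, and in 11 it was above CD4, with TRBJ1-2 at 4.98% in CD8 and 5.004% in CD4 as the exception. Among V genes with at least 1% of CD8 clonotypes, TRBV4 had the highest value in CD8, 24.1%, against 15.5% in CD4 and 28.1% in DN, and TRBV16 had the lowest, 10.2%.

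The same share depended on where else a CD8 clonotype was found. It was 15.1% (14.9 to 15.3%) for CD8 clonotypes found in neither other library and 12.3% (11.3 to 13.4%) for those also in CD4 alone. It was 20.2% (19.5 to 20.98%) for those also in DN alone and 20.6% (19.3 to 22.0%) for those in both. In this share the CD8 clonotypes found in 1 reference alone lay near that reference, of which they are themselves part. Without any shared clonotype the ratio of CD8 to DN was 0.762 and that to CD4 1.22. Charge differed as well. The middle of the CDR3, from residue 5 to the sixth from the end, had a mean net charge of -0.24 in CD8 (SD 0.838), -0.17 in CD4 (SD 0.825) and -0.31 in DN (SD 0.918). With the references weighted to the V-J use of CD8, the difference from DN shrank from 0.0763 to 0.0236 charge units, while that from CD4 (CD8 minus CD4) went from -0.0707 to -0.107.

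**Figure D4:**
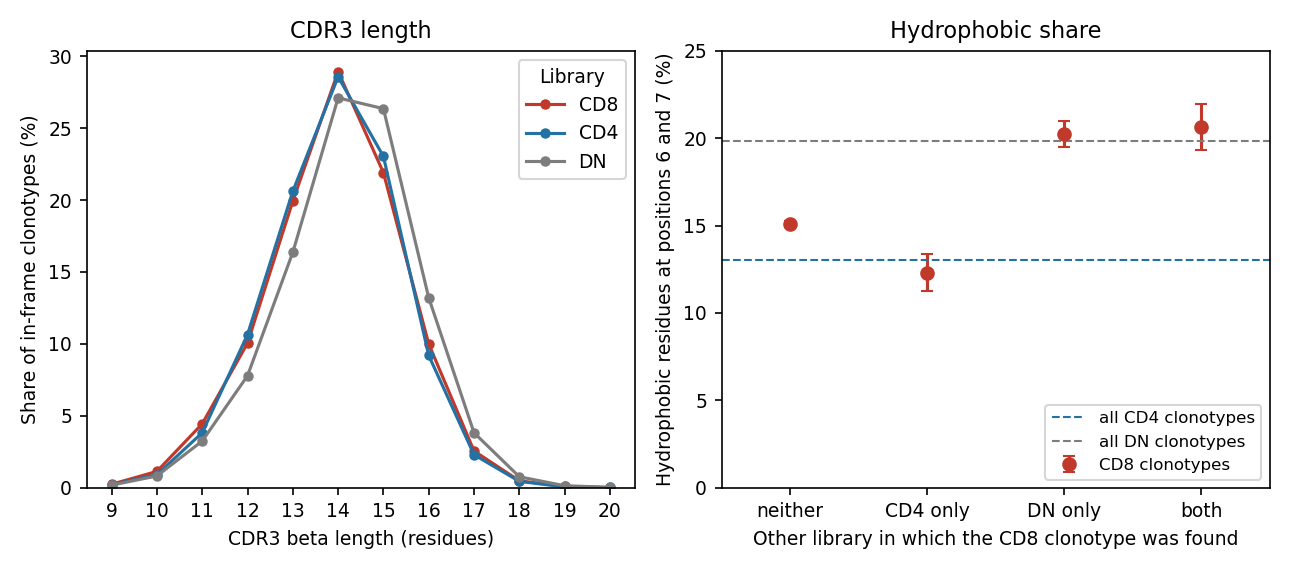
Left, share of in-frame clonotypes (%) by CDR3 beta length in residues for the 3 libraries; right, hydrophobic residues at positions 6 and 7 (%) of CD8 clonotypes by the other library in which they were found, with 95% Wilson intervals and dashed lines for all CD4 and all DN clonotypes. The CD8 and CD4 length curves lie close together but differ at some lengths, such as 11 residues (4.45% and 3.83%) and 15 residues (21.9% and 23.0%). CD8 clonotypes also found in DN, which are part of that library, lie near the DN line (20.2% and 19.9%).

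Among the residues in the middle of the CDR3, tryptophan and glutamine are described because the D genes can encode them. Tryptophan made up 3.19% of the middle residues in CD8, 2.52% in CD4 and 5.51% in DN, and glutamine 6.35%, 8.01% and 5.39%. By the ratio of CD8 to CD4, phenylalanine (1.29) and tryptophan (1.27) stood highest and glutamine (0.792) lowest, and by that to DN threonine (1.28) stood highest and tryptophan (0.578) lowest. In one reading frame TRBD2 encodes tryptophan followed by glycine. Of CD8 clonotypes assigned TRBD2, 37.5% had a tryptophan in the middle (36.9 to 38.1%) and 32.2% the pair WG, while 4.54% of those assigned TRBD1 had a tryptophan. Among clonotypes assigned TRBD2 the tryptophan share was 32.5% in CD4 (31.7 to 33.4%) and 55.8% in DN (55.0 to 56.6%), with CD8 between them. The D gene is called from the same CDR3 bases that are scored here. Shares by assigned D gene therefore do not hold the D gene itself fixed. Glutamine, which TRBD1 can encode, was found in 33.5% of TRBD1 clonotypes of CD8, 40.1% in CD4 and 30.6% in DN. CD8 clonotypes found in neither other library had 2.90% tryptophan, against 5.78% in those also in DN alone.

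Some CD8 clonotypes with different nucleotide sequences encoded the same CDR3. Of 70847 distinct combinations of amino acid CDR3, V and J gene, 4824, or 6.81%, were made by at least 2 nucleotide sequences, against 5.28% in CD4 and 5.09% in DN, where fewer clonotypes were sampled. Their 11217 clonotypes were shorter than the rest, with 13.5 residues against 14.0 and 8.44 junction bases against 10.3. The CDR3 with the most sequences, a CDR3 of TRBV1 with TRBJ2-7, was encoded by 13 sequences with 16 reads in all, each 1 base from another, of which 4 are shown to display the codons that changed.
Variant 1: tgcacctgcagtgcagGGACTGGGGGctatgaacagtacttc
Variant 2: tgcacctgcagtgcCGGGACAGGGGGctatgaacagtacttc
Variant 9: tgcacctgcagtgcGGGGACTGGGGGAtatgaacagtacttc
Variant 12: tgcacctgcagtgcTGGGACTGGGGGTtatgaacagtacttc
In the CD4 library 0 sequences encoded this CDR3 with the same genes, and in DN 3 did. The next were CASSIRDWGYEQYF with TRBV19 and TRBJ2-7 (10 sequences, 60 reads) and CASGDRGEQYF with TRBV13-2 and TRBJ2-7 (10 sequences, 30 reads). Of the 13 sequences of the TRBV1 CDR3, 11 had a single read, and the part of read errors in such sequences was not tested.

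Most CD8 clonotypes were small. Of them, 68.9% had 1 read and together 37.1% of reads, 18.5% had 2 reads, 9.76% had 3 to 5, 1.81% had 6 to 10 and 0.941% had 11 to 100. The 33 clonotypes with over 100 reads held 6.32% of reads. The larger a CD8 clonotype was, the more often it was found elsewhere. Of single-read clonotypes 6.23% were found in DN and 2.82% in CD4, of those with 11 to 100 reads 63.0% and 53.3%, and of those over 100 reads 90.9% and 93.9%. The mean CDR3 length was 14.0 residues (SD 1.51) at 1 read and 13.7 (SD 1.55) at 6 to 10 reads, and 13.8 (SD 1.59) at 11 to 100. The junction averaged 10.3, 8.73 and 8.96 bases in these classes. TRBJ1 genes were carried by 31.1% of single-read clonotypes and 25.8% of those with 11 to 100 reads.

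V genes differed in how often their CD8 clonotypes were large. Of 797 CD8 clonotypes with more than 10 reads, 153 used TRBV13-1, 19.2% (16.6 to 22.1%), against 8.76% of single-read clonotypes. Among the 242 of these large clonotypes that were found in neither other library, however, TRBV13-1 held 9.09%, while TRBV13-3 held 23.6% and TRBV14 11.2%. TRBV16 held 0.376% of clonotypes with more than 10 reads (3 clonotypes) and 1.24% of single-read clonotypes.

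The largest CD8 clonotype, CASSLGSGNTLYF, had 3260 reads, 2.16% of CD8 TCR beta reads (2.09 to 2.24%). It had 54 reads in CD4 (0.0404%) and 75 in DN (0.0386%), shares 53.5 and 56.0 times lower. No other CD8 sequence encoded this CDR3 with TRBV13-1, and 1 clonotype with 2 reads lay 1 residue away. Clonotypes 2 to 7 had 637, 593, 360, 284, 258 and 257 reads in CD8, at most 12 reads in CD4 and at most 9 in DN. Clonotype 5 reads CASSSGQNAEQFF and clonotype 7 reads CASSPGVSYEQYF. Clonotypes 8, 9 and 10, with 225, 212 and 188 CD8 reads, differed from these. In DN they had 1374, 1339 and 1142 reads and ranked 1, 2 and 6, so that their CD8 share was 0.211, 0.204 and 0.212 times the DN share.

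The 100 largest CD8 clonotypes thus fell into separate kinds by their share elsewhere. In 56 the CD8 share was at least 10 times that of both other libraries, and these held 6.37% of CD8 reads. In 40, with 2.36% of CD8 reads, the share was higher in DN, and in the remaining 4 CD8 led by less than 10 times. Of the first kind, 23 had no DN read and 24 no CD4 read. For the 40 the ratio of CD8 to DN share had a median of 0.201 and quartiles of 0.181 and 0.226, with a range from 0.136 to 0.783. In 4 of them the CD4 share was also higher than the CD8 share. The 5 largest of the first kind were clonotypes 1 to 5. By V gene the 56 used TRBV13-3 most often (13 clonotypes), then TRBV31 and TRBV17 (6 each). TRBV13-3 was also the most frequent in the 40 (7 clonotypes), followed by TRBV1 (6), and it held 14.5% of all CD8 clonotypes. The first kind had 54 in-frame clonotypes and the kind with a higher DN share 38, of which some were shorter than 11 residues. Over CDR3s of 11 to 18 residues, hydrophobic residues held 14.8% of positions 6 and 7 in the first kind and 25.7% in the other. No interval was computed for these small sets. TRBD2 was assigned to 16 of 56 and 19 of 40. Of the 100, 96 were in frame without a stop. These 96 include clonotype 32, assigned TRBV21 and TRBJ2-1 with 104 CD8 reads. Its CDR3 reads YAEQFF and lacks the conserved cysteine, and its share was higher in CD4 and DN. The largest of the 4 outside the 96, clonotype 14 with TRBV31 and TRBJ2-1, had 167 reads in CD8, 3 in CD4 and 9 in DN. Its CDR3 had 43 bases, which leaves the frame.
CD8 clonotype 14: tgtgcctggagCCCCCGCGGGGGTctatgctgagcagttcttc

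**Figure D5:**
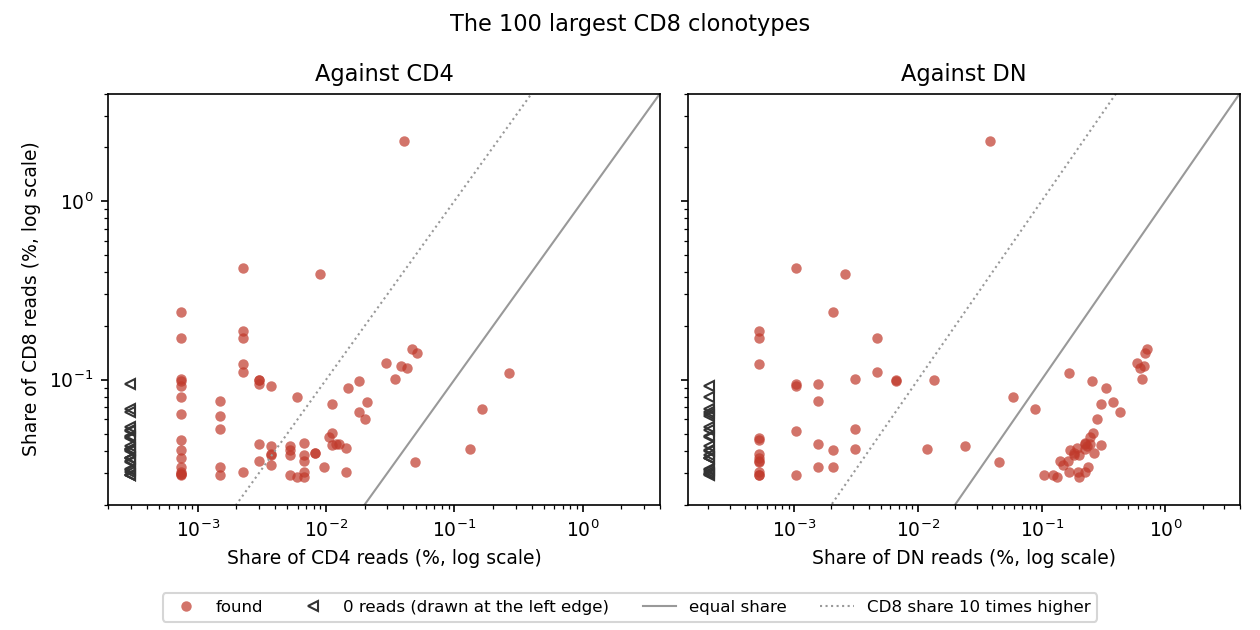
Share of CD8 reads (vertical axis, %) against share of CD4 reads (left) and DN reads (right) for the 100 largest CD8 clonotypes, all on log scales; the solid line marks equal shares, the dotted line a 10 times higher CD8 share, and triangles at the left edge clonotypes with 0 reads there. Against DN the points split into 40 to the right of the solid line and 56 left of the dotted line.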

How the data were processed

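TCR cDNA of 3 sorted splenic subsets of 1 mouse was sequenced, 1 library each. The kit profiles TCR alpha and beta, but TCR alpha had only 101 reads in CD8, 101 in CD4 and 85 in DN. The clonotype tables are the output of MiXCR as the authors ran it. Its version, settings and filters are not given in the sources used here. The deposited tables hold for each clonotype a count of reads, not normalized, and the fraction of all reads of that library, which equalled the count over the table's total when checked. The best V, D and J genes and the CDR3 came with them, without a genome build, so no coordinates are given. Older Vβ names and gene order were taken from RefSeq's gene table for GRCm38.p6.

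Clonotypes with a TRBV and a TRBJ gene were kept with no minimum of reads, 150874 reads in CD8, 133667 in CD4 and 194290 in DN. At this depth a count of 0 allows a share of up to 0.00199% of CD8 reads (3 counts). Groups followed the cell type in the labels. Shares are of clonotypes unless reads are named, with 95% Wilson intervals. CD8 was compared with CD4 and with DN by two-sided Fisher's exact tests on clonotype numbers, adjusted by Benjamini-Hochberg over all genes and both references, and a call also required a 1.3-fold difference. V-J pairs needed 100 clonotypes over the 3 libraries. No test was applied to CDR3 measures, clone sizes or large clonotypes. Differences in mean CDR3 length have 95% intervals from the SD over clonotypes, each taken as independent. The end shared by a gene's clonotypes was extended base by base while over 50% of those still matching carried the next base and at least 5% of the gene's clonotypes matched. Computation ran in Python 3.11.15 (pandas 2.3.3, SciPy 1.17.1, NumPy 2.4.6) with plots drawn by matplotlib 3.10.9, and the statistics were tested on simulated data.

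The members, gene groups and comparisons were chosen with earlier results of these data known. Named were V genes with at least 5% of CD8 clonotypes, those called with at least 1%, the Vβ5, Vβ8, Vβ11 and Vβ12 genes and TRBV31, all J genes, the 5 largest V-J pairs and the 3 farthest above and below the product of shares, the 10 largest CD8 clonotypes, the 5 largest with a CD8 share at least 10 times that of both references, and those with the CDR3 of the largest. The TRBV14 and TRBV13-3 shares by reading frame, the TRBV16 and convergent sequences, clonotype 14 and the V-J pairs compared between libraries were chosen after their values were seen. Alternatives were read weighting, a minimum of 2 reads, in-frame clonotypes only, merging of clonotypes 1 mismatch apart, leaving out the 10 largest or all shared clonotypes, rarefaction and weighting to the V-J use of CD8. Leaving out CD8 clonotypes of higher share elsewhere was added after seeing the data.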

Additional observations from a re-analysis of the deposited data

Results flagged for a closer look

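The CD8 library also held 100 TCR alpha clonotypes, which the comparisons above do not use. They had 101 reads in all, 0.0669% of the library, and all but 1 had a single read. They spread over 50 TRAV and 37 TRAJ genes, and 93 were in frame without a stop. At this depth TCR alpha use in CD8 could not be described.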

How the results depend on the processing

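Each subset had 1 library from 1 mouse, so no alternative stands in for a replicate. No paired analysis was possible because each subset had 1 library and no replicate number. Of 170 values of 26 measures under the alternatives, 158 kept their direction and stayed within 1.5-fold. For the mean length against CD4, whose interval over clonotypes covered 0, staying within that interval was counted instead. The cause of the other 12 was not tested. With at least 2 reads per clonotype, 1 J gene was called against CD4 (0 otherwise), the 10 largest clonotypes held 1.23 times the share of CD4 and 1.08 times that of DN (0.977 and 0.774 over all clonotypes), and the mean length of CD8 minus CD4 was -0.047 residues. Counted by reads, 3 J genes were called against DN (0 otherwise), CD8 minus CD4 length was -0.0563, and 24.7% of CD8 (9.57% of clonotypes) was found in DN. Weighting the references to the V-J use of CD8 moved the charge difference from -0.0707 to -0.107 against CD4 and from 0.0763 to 0.0236 against DN. Without CD8 clonotypes of higher share elsewhere, an alternative chosen after seeing the data, the 10 largest held 1.14 times the share of CD4, and 3.29% of CD8 clonotypes were found in DN, 3.86 times the share found in CD4 (1.99 otherwise). Of 252 values of 18 named V genes, 234 kept their call or lack of one, 8 lost a call and 10 gained one. Over in-frame clonotypes TRBV15 turned from lower to 1.01 times CD4 and 1.15 times DN without a call, and TRBV12-1 gained calls as higher than CD4 (3.93) and DN (3.92). Counted by reads, TRBV13-3 (1.27), TRBV17 (0.900) and TRBV31 (1.23) lost their calls against DN and TRBV13-1 (0.940) against CD4. TRBV13-2 (0.670) and TRBV12-1 (1.78) gained one against CD4, and TRBV29 (1.35) and TRBV12-1 (1.31) against DN. All calls counted by reads, those of J genes included, took each read as independent, so their p understates the error. With at least 2 reads TRBV13-1 (0.772) lost its call against CD4 and TRBV5 (0.772) against DN. TRBV31 passed against CD4 over in-frame clonotypes (1.36), without shared clonotypes (1.34) and without CD8 clonotypes of higher share elsewhere (1.32), where TRBV29 passed against DN (1.33). With 68.9% of CD8 clonotypes at a single read, the lack of a clonotype in another library is only a bound at this depth. Rarefied to equal reads, CD8 had 1.67 times the clonotypes of CD4 and 2.21 times those of DN (1.81 and 1.94 at full depth), and the overlap was not rarefied.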
